A study of Mus musculus with 14 samples.

Results

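Colipase and the pancreatic lipases digest dietary fat. The acinar cells of the exocrine pancreas make them and secrete them into the small intestine. Pancreatic lipase, encoded by *Pnlip*, splits triglycerides, and colipase, encoded by *Clps*, is the small cofactor that holds this enzyme on fat droplets coated with bile salts. *Pnliprp1* and *Pnliprp2* encode related proteins. *Pnliprp2* hydrolyses galactolipids and phospholipids besides triglycerides, whereas little lipase activity is known for *Pnliprp1*. *Cel* encodes the carboxyl ester lipase that bile salts stimulate. The colon lies close to the pancreas in the abdomen, so the levels of these genes in colon RNA were read beside 3 genes of pancreatic digestive enzymes that served as comparison, the carboxypeptidase *Cpa1*, the elastase *Cela2a* and the trypsinogen *Prss2*.

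The family comprised these 5 genes, out of 19096 genes named on the array, and each was measured by 1 probe. The members were chosen by name after earlier results of these same arrays, in which the responses of *Clps* and *Pnliprp2* to dexamethasone (DEX, a synthetic glucocorticoid) were already known. The values of the members with and without DEX are therefore given as a description, with no test. The comparisons between genotypes were not the ones known from this choice and carry an adjusted p. They are not independent of it, because the comparison under PBS uses the PBS arrays and that under DEX the DEX arrays of the same responses.

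The data were 14 one-color Agilent arrays of total colon RNA, 1 array per male C57BL/6 mouse on chow diet. All mice were adrenalectomized (ADX), which removes endogenous glucocorticoids, at 6 to 8 weeks of age by the labels, whereas the study's methods state an older age. Injection followed 2 weeks later, at 8 to 10 weeks by the labels, and colons were collected 6 hours after the injection. GR iKO mice carry GR fl/fl alleles and a Villin-cre transgene, which deletes the glucocorticoid receptor (GR) in the epithelium of the intestine and leaves it in other cells of the colon. Flox mice carry GR fl/fl alleles without Cre. DEX, at 1 mg/kg, was injected into 3 Flox and 4 GR iKO mice, and PBS into 4 Flox and 3 GR iKO mice. The replicate numbers below are those of the labels. The treatment text of the labels describes DEX for every sample, and the PBS groups were taken from the sample titles. The arrays of a group share 1 slide that holds no other group, and effects of slide and group cannot be told apart. Levels are log2 signals minus the 75th percentile of the array. A level of 0 is the signal at that percentile, and a step of 1 is a doubling. A probe was counted as detected where the scanner software marked it well above background. Levels of different probes are not compared, except to name the brightest probes of a list.

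The labels were checked first. *Nr3c1*, which encodes GR, had a level of 1.4 ± 0.09 (SD, n = 4) in Flox PBS, 1.20 ± 0.12 (n = 3) in Flox DEX, 0.50 ± 0.26 (n = 3) in GR iKO PBS and −0.05 ± 0.08 (n = 4) in GR iKO DEX. It was lower in all GR iKO mice than in all Flox mice, by 1.87-fold under PBS (adjusted p = 0.0162 by limma, below the 2-fold minimum) and by 2.37-fold under DEX (adjusted p = 0.00319, a call lost in 3 of 25 alternatives). Of its other 3 probes under PBS, 1 was called (2.21-fold lower, adjusted p = 0.0183), and 2 were not (2.11-fold and 1.81-fold lower, adjusted p = 0.636 and 0.0284). Of these 3 probes, 2 were likewise lower under DEX past 2-fold (2.41-fold and 2.15-fold, adjusted p = 0.00866 and 0.00662), and the dimmest was not called (difference −0.35, adjusted p = 0.777). Whether these probes lie in the deleted part of the gene was not tested. The GR target *Sgk1* was raised 9.32-fold by DEX in Flox mice (adjusted p = 0.000828), with a difference of 0.66 in GR iKO mice (adjusted p = 0.201). *Fkbp5*, another GR target, was 12.6-fold higher in Flox mice (adjusted p = 0.000686), with a difference of 0.94 in GR iKO mice (adjusted p = 0.0892). The responses of the genotypes differed by −2.56 for *Sgk1* and −2.71 for *Fkbp5* (adjusted p of the interaction = 0.0436 for both). These 2 calls were each lost in 16 of 23 alternatives, most of them with 1 array left out. With each array left out, the differences lay between −2.86 and −2.34 for *Sgk1* and between −2.92 and −2.45 for *Fkbp5*. The lowest adjusted p were 0.0121 and 0.0284, and with normexp, another background correction, they were 0.35 and 0.158. *Tsc22d3* rose 3.75-fold in Flox and 3.06-fold in GR iKO mice (adjusted p = 0.000686 and 0.000865), a difference of −0.29 between the responses (adjusted p = 0.703). The calls of *Sgk1*, *Fkbp5* and *Tsc22d3* in Flox mice were each lost in 2 of 25 alternatives, with an adjusted p of up to 0.2, 0.159 and 0.185. The tissue label was checked against 8 colon epithelium genes, all of which were detected on all 14 arrays. The level of *Car1* lay between 6.19 and 8.35, that of *Aqp8* between 6.46 and 7.76 and that of *Krt20* between 7.20 and 7.75. *Aqp8* has no level in GR iKO DEX mice 1 and 3. The posterior colon gene *Hoxb13* was −3.90 in GR iKO PBS mouse 2 and −0.69 in GR iKO DEX mouse 2. On the other arrays it lay between 1.72 and 4.61. It was 3.67 to 4.47 in Flox PBS mice and 2.30 to 3.46 in Flox DEX mice. In the other GR iKO mice it was 4.38 and 4.61 with PBS and 1.72 to 3.85 with DEX.

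Before the lipases, the arrays themselves have to be told apart, because 6 of the 14 stood apart from the rest in exocrine pancreas genes. *Cpa1* had levels of −5.53, 7.01, −0.26 and −6.19 in Flox PBS mice 1 to 4, of 8.11, 8.29 and −4.79 in Flox DEX mice 1, 2 and 4, of −5.87, −7.58 and −6.45 in GR iKO PBS mice 2 to 4, and of −4.59, 5.25, −5.36 and 4.05 in GR iKO DEX mice 1 to 4. High values thus occurred in 1 Flox PBS mouse, in 2 Flox DEX mice and in 2 GR iKO DEX mice, an intermediate value occurred in Flox PBS mouse 3, and *Cpa1* stayed at background in all 3 GR iKO PBS mice. *Cela2a* and *Prss2* were high on the same arrays. *Cela2a* was detected on 6 arrays, namely those of Flox PBS mice 2 and 3, Flox DEX mice 1 and 2 and GR iKO DEX mice 2 and 4, where its levels were 4.37, −2.97, 6.85, 7.18, 2.94 and 1.46. These are the 6 arrays on which all 3 comparison genes were well above background, and they are called here the arrays with pancreas genes. The other 8 are called the arrays without pancreas genes, although *Prss2* was detected there too, between −5.37 and −3.98.

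**Figure D1:**
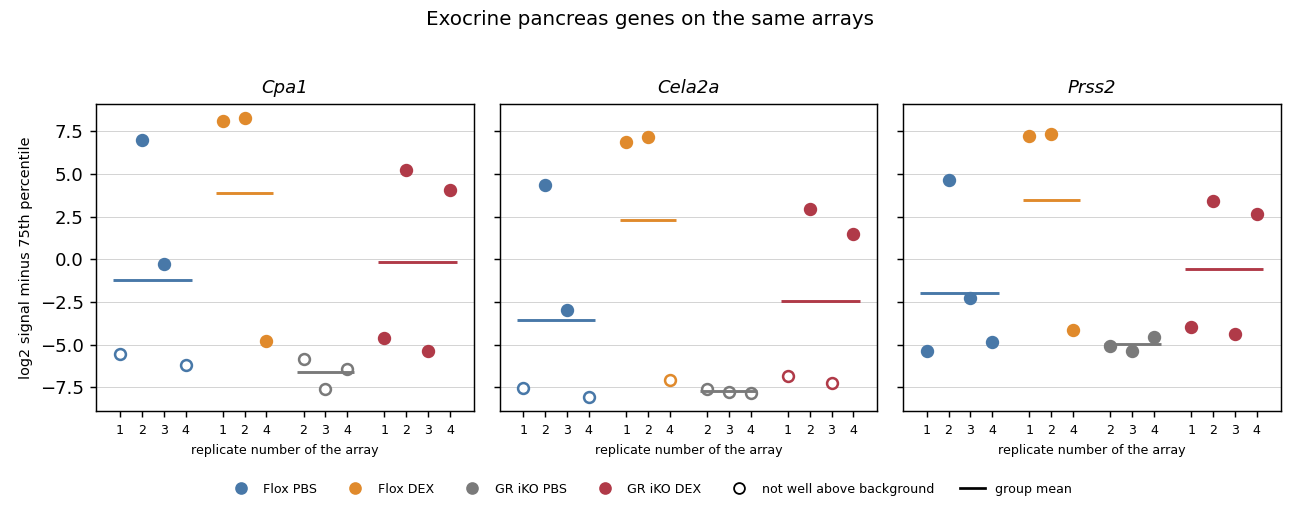
Level of Cpa1, Cela2a and Prss2 on each array (log2 signal minus the 75th percentile, vertical axis) by group and replicate number (horizontal axis), with open circles for arrays on which the probe was not well above background and lines for group means. High values are found on the arrays of Flox PBS mouse 2, Flox DEX mice 1 and 2 and GR iKO DEX mice 2 and 4 for all 3 genes, for example 8.29 for Cpa1 in Flox DEX mouse 2.

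The same held for most of a longer list of exocrine pancreas genes. Of 21 listed genes, 17 were measured, and over the 14 arrays 12 of the other 16 had a Pearson r with *Cpa1* above 0.9. *Cela1*, *Sycn*, *Gp2* and *Spink1* did not. The summed signal of the 17 genes, in units of the 75th percentile, was 310, 1010, 324 and 367 in Flox PBS mice 1 to 4, 2760, 3360 and 226 in Flox DEX mice 1, 2 and 4, 76.7, 327 and 343 in GR iKO PBS mice 2 to 4, and 210, 445, 348 and 404 in GR iKO DEX mice 1 to 4. The sum of GR iKO DEX mouse 1 covers 16 genes, because *Spink1* was an outlier spot there. The brightest gene of the list was *Amy2a5* in Flox DEX mouse 2, *Cela3b* in Flox DEX mouse 1 and *Sycn* on the other 12 arrays. *Sycn*, *Spink1* and *Cela1* had mean levels of 7.41, 6.47 and 3.99, so the sum is mostly theirs on the arrays without pancreas genes. The median level of the list shows the split more clearly. It was 5.23 and −0.65 in Flox PBS mice 2 and 3, 6.95 and 7.28 in Flox DEX mice 1 and 2, and 3.58 and 3.09 in GR iKO DEX mice 2 and 4. On the other 8 arrays it lay between −3.59 and −2.72.

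Of 4 acinar transcription factor genes, *Ptf1a* and *Rbpjl* were high on fewer arrays. *Ptf1a* was well above background on 4 arrays, at −3.76 in Flox PBS mouse 2, −1.70 and −1.3 in Flox DEX mice 1 and 2, and −5.37 in GR iKO DEX mouse 4. *Rbpjl* was 0.46, 0.12 and 0.30 on the first 3 of these arrays and between −4.43 and −1.18 on the others. *Bhlha15* and *Nr5a2* were detected on every array, between −1.06 and 1.69 and between 0.76 and 1.59. *Bhlha15* was highest on the same 3 arrays as *Rbpjl*, at 1.43, 1.67 and 1.69, but Flox PBS mouse 3 was close, at 1.13. *Nr5a2* did not split the arrays in this way. The islet hormone gene *Ins2* reached −1.52 and 0.44 in Flox DEX mice 1 and 2 and lay between −4.57 and −3.78 elsewhere, and *Ins1* was likewise highest there, at −4.21 and −2.14. *Ppy* was highest in Flox PBS mouse 3, at 2.22, and *Gcg* stayed between 2.94 and 3.87. None of the 17 exocrine genes, 4 acinar transcription factor genes or 4 measured islet genes was called in any of the 5 comparisons (adjusted p below 0.05 and at least 2-fold). The share of all probes called was between 0.134% and 5.01% by comparison, and nothing is read from the absence of calls. The median difference of the exocrine list with DEX was 4.59 for Flox and 3.08 for GR iKO mice, beside 0.06 and 0.09 for all probes. The source of the exocrine gene signal was not tested. Bulk samples cannot tell a difference in the number of cells expressing these genes from a difference in their RNA content.

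*Pnlip*, *Pnliprp1* and *Pnliprp2* are neighbours, in this order, on chromosome 19, with no other protein-coding gene between them in the RefSeq table. Over the 14 arrays, however, *Pnlip* and *Pnliprp1* had a Pearson r of 0.96, and *Pnliprp2* had 0.72 and 0.77 with them. The promoters of all 3 are therefore printed, with that of *Cel*. They run from 250 bases before to 50 bases after the start site (RefSeq, GRCm38.p6). Promoters of 4 of the 5 members were matched by symbol, and that of *Clps* was not. The windows are chr19:58670115-58670414 (plus strand) for *Pnlip*, chr19:58728637-58728936 (plus strand) for *Pnliprp1*, chr19:58759473-58759772 (plus strand) for *Pnliprp2* and chr2:28563354-28563653 (minus strand) for *Cel*. Capitals mark matches on either strand to the GR core letters TGTTCT, to TTTCCC, the letters of the box that the acinar factor PTF1 binds together with an E-box, or to the TATA box TATAAA. None of the matches overlapped.
Pnlip: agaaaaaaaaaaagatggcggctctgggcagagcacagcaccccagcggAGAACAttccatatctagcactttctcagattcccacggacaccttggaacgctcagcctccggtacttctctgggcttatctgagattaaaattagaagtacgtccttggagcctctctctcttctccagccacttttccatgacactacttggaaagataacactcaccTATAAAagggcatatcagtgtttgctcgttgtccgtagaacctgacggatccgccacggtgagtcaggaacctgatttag
Pnliprp1: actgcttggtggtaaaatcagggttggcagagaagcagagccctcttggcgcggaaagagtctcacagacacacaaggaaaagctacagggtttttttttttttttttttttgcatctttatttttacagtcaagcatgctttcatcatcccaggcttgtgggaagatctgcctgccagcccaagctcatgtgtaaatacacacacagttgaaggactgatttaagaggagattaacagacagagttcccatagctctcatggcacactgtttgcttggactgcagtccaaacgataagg
Pnliprp2: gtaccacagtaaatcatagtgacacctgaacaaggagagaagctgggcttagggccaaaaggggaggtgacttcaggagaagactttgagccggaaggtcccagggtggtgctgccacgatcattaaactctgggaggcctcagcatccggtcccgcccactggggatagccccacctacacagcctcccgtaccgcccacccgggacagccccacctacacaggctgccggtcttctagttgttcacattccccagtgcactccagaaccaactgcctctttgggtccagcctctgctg
Cel: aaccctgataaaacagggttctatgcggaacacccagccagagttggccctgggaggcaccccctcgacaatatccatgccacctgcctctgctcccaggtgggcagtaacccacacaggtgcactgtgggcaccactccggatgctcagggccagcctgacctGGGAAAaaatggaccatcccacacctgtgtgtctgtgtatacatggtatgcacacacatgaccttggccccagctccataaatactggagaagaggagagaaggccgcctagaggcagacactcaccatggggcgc

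The *Pnlip* promoter held 1 match to the GR core, as AGAACA at position −201, and 1 TATA box at −30. The *Cel* promoter held TTTCCC on the minus strand, as GGGAAA at −86. The *Pnliprp1* and *Pnliprp2* windows held none of these letters. GGGAAA was also found in the promoters of all 3 comparison genes, at −19 for *Cpa1*, −84 for *Cela2a*, and −110 and −78 for *Prss2*. Among 32851 promoters of the same length, 19.0% held the GR core on either strand, 25.2% held TTTCCC and 13.6% held TATAAA. The full GR motif, AGAACA and TGTTCT with 3 bases between them, was found in 3 promoters, none of them of these genes. A match describes letters only and shows no binding.

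*Pnlip*, the lipase itself, followed the pancreas genes. Its levels were 5.94 and −1.05 in Flox PBS mice 2 and 3, 7.50, 7.64 and −5.16 in Flox DEX mice 1, 2 and 4, and 4.47 and 3.35 in GR iKO DEX mice 2 and 4. On the other 7 arrays the probe was not well above background, among them all 3 arrays of GR iKO PBS mice (−7.61, −7.80 and −7.85) and those of GR iKO DEX mice 1 and 3 (−5.96 and −7.14). *Pnlip* was thus high only where *Cpa1* was high. Within an array its log2 ratio to *Cpa1* stayed between −1.07 and −0.61 on all 6 arrays with pancreas genes, a spread of 0.46.

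*Pnliprp1* and *Cel* were detected on every array, and on most arrays they were low. *Pnliprp1* had levels of −3.71, 5.05, −1.46 and −3.40 in Flox PBS, 7.13, 7.25 and −3.80 in Flox DEX, −5.02, −3.24 and −2.47 in GR iKO PBS, and −2.26, 3.00, −1.69 and 2.67 in GR iKO DEX. *Cel* had levels of −2.89, 5.63, −1.43 and −3.06 in Flox PBS, 7.48, 7.51 and −1.78 in Flox DEX, −2.25, −2.33 and −2.16 in GR iKO PBS, and −3.53, 3.34, −1.82 and 2.68 in GR iKO DEX. Both were high on the same 5 arrays as *Cpa1*, and on the others neither reached −1. Their log2 ratios to *Cpa1* on the arrays with pancreas genes lay between −2.25 and −0.98 for *Pnliprp1* and between −1.91 and −0.63 for *Cel*. These are spreads of 1.27 and 1.29, and those of *Cela2a* and *Prss2* to *Cpa1* were 1.61 and 1.47.

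*Clps*, the cofactor, was detected on all 14 arrays and behaved otherwise. Its levels were 2.80, 6.69, 3.85 and 3.89 in Flox PBS mice 1 to 4, 7.71, 7.75 and 3.89 in Flox DEX mice 1, 2 and 4, 2.61, 2.82 and 2.07 in GR iKO PBS mice 2 to 4, and 4.78, 5.15, 5.54 and 5.42 in GR iKO DEX mice 1 to 4. The highest values were those of the 3 Flox arrays with the most pancreas signal. In GR iKO mice all 4 DEX values lay above all 3 PBS values, which also held for *Pnliprp1*, *Pnliprp2* and *Prss2*, but not for *Cel*. *Pnlip*, *Cpa1* and *Cela2a* were at background in all 3 PBS mice and are not ordered here. In this comparison 5.01% of all probes were called. The share of all probes with this order of the groups is not given, so nothing is read from that order. For *Clps*, however, DEX mice 1 and 3, whose arrays had *Pnlip* at background, did not lie apart from DEX mice 2 and 4. The log2 ratio of *Clps* to *Cpa1* was −0.31, −0.40 and −0.53 in Flox PBS mouse 2 and Flox DEX mice 1 and 2, −0.10 and 1.37 in GR iKO DEX mice 2 and 4, and 4.10 in Flox PBS mouse 3. Of the 8 other arrays, *Cpa1* was detected on those of Flox DEX mouse 4 and GR iKO DEX mice 1 and 3, where the ratio was 8.68, 9.38 and 10.90. On the other 5 *Cpa1* was at background and no ratio is given.

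*Pnliprp2* resembled *Clps* more than its neighbours. Over the 14 arrays its Pearson r was 0.92 with *Clps*, 0.77 with *Pnliprp1* and 0.72 with *Pnlip*. Its levels were −2.79, 2.54, −0.70 and −0.15 in Flox PBS mice 1 to 4, 3.53, 3.59 and −0.04 in Flox DEX mice 1, 2 and 4, −3.02, −2.15 and −2.70 in GR iKO PBS mice 2 to 4, and 1.81, 2.27, 3.78 and 3.33 in GR iKO DEX mice 1 to 4. The highest value of all was found in GR iKO DEX mouse 3, whose array had *Pnlip*, *Cela2a* and the median of the exocrine list at their low level. GR iKO DEX and GR iKO PBS mice did not overlap, whereas Flox DEX mouse 4, the single Flox DEX array without pancreas genes, lay at −0.04 between Flox PBS mouse 2, an array with pancreas genes, and the 3 other Flox PBS mice. The log2 ratio of *Pnliprp2* to *Cpa1* was −4.46, −4.57 and −4.70 in Flox PBS mouse 2 and Flox DEX mice 1 and 2. In GR iKO DEX mice 2 and 4 it was −2.98 and −0.72, above those 3 arrays, and in Flox PBS mouse 3 it was −0.44.

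**Figure D2:**
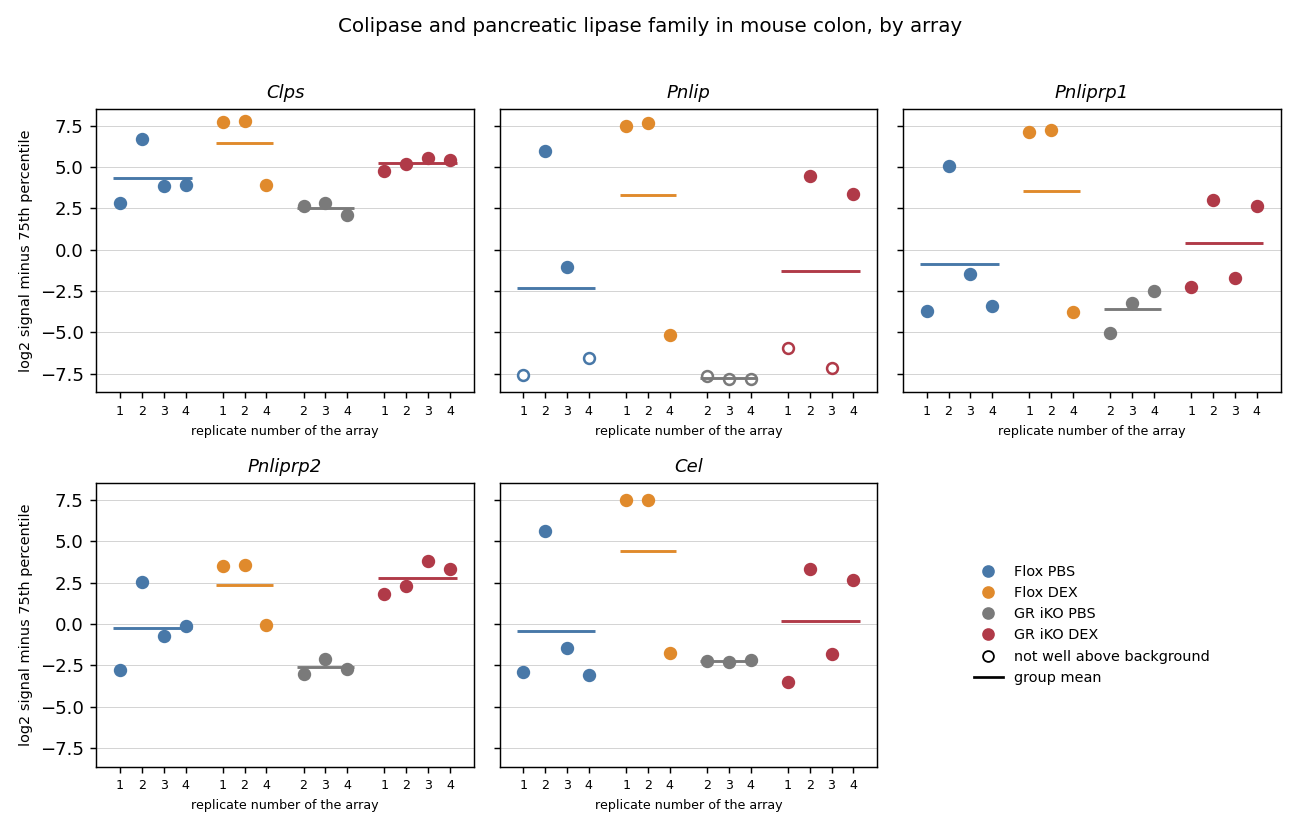
Level of each family member on each array (log2 signal minus the 75th percentile, vertical axis) by group and replicate number (horizontal axis), with open circles for arrays on which the probe was not well above background and lines for group means. Pnlip, Pnliprp1 and Cel are high on 5 arrays spread over 3 groups, whereas for Clps and Pnliprp2 GR iKO DEX mice 1 and 3 (4.78 and 5.54, and 1.81 and 3.78) lie near mice 2 and 4 of that group (5.15 and 5.42, and 2.27 and 3.33).

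By group mean, *Clps* ranked Flox DEX (6.45 ± 2.22, SD, n = 3), GR iKO DEX (5.22 ± 0.34, n = 4), Flox PBS (4.31 ± 1.67, n = 4) and GR iKO PBS (2.50 ± 0.39, n = 3). Each neighbouring pair in this order overlapped. *Pnliprp2* ranked GR iKO DEX (2.80 ± 0.91, n = 4), Flox DEX (2.36 ± 2.08, n = 3), Flox PBS (−0.27 ± 2.20, n = 4) and GR iKO PBS (−2.62 ± 0.44, n = 3), again with overlap between all neighbours. The spread of *Pnlip* within a group was far wider, with an SD of 6.21 in Flox PBS, 7.35 in Flox DEX and 6.08 in GR iKO DEX. The spread of *Cel* and *Pnliprp1* in these groups was between 2.79 and 6.34. In GR iKO PBS, the group with none of the arrays with pancreas genes, the SD was 0.09 for *Cel* and 1.3 for *Pnliprp1*.

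Over the 14 arrays *Pnlip* had a Pearson r of 1.00 with *Cpa1*, *Pnliprp1* 0.96 and *Cel* 0.96, whereas *Clps* had 0.86 and *Pnliprp2* 0.72. *Clps* and *Pnliprp2* had r = 0.92 with each other. On the 8 arrays without pancreas genes this value was 0.98. There *Pnliprp1* and *Pnliprp2* had r = 0.69, *Clps* had r = 0.57 with both *Pnlip* and *Pnliprp1*, *Pnlip* and *Pnliprp2* had r = 0.53, and the other 5 pairs of members lay between −0.10 and 0.06. With *Prss2*, the comparison gene detected on every array, *Pnlip* had r = 0.73 on these 8 arrays, *Pnliprp2* 0.70, *Clps* 0.63, *Pnliprp1* 0.52 and *Cel* 0.03. *Pnlip* was at background on 7 of these 8 arrays. The arrays share their group structure and these values are descriptions.

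**Figure D3:**
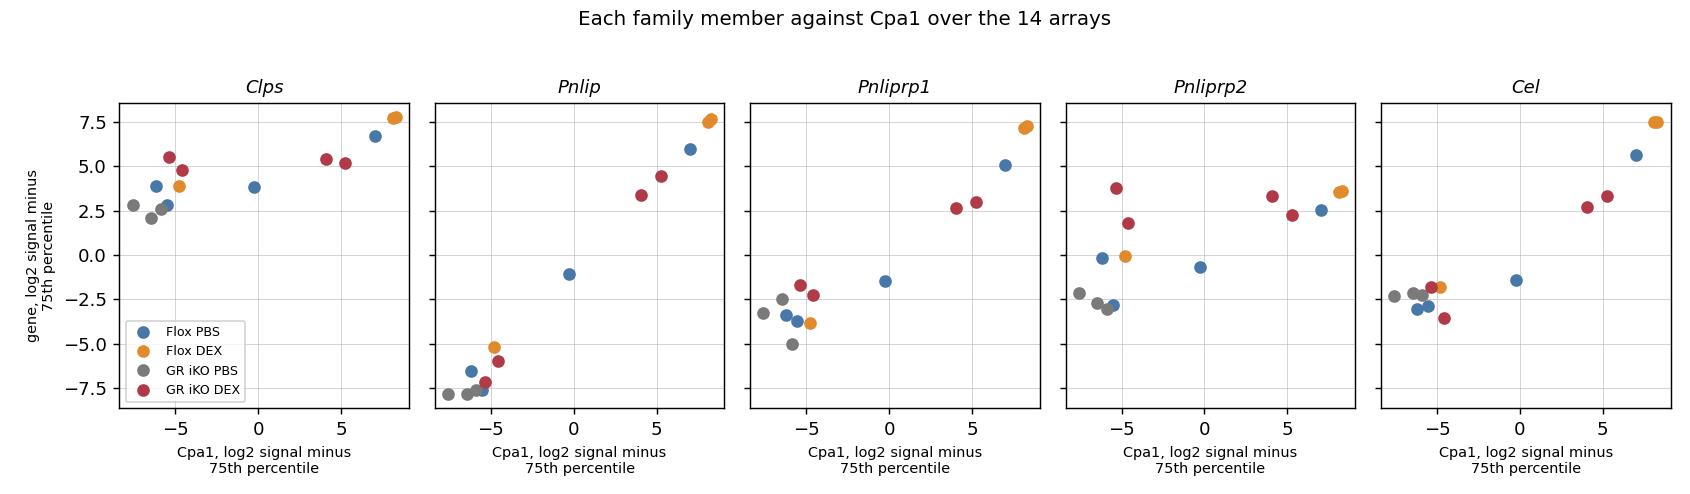
Level of each family member (vertical axis) against that of the exocrine pancreas gene Cpa1 (horizontal axis), both as log2 signal minus the 75th percentile, with 1 point per array colored by group. Pnlip, Pnliprp1 and Cel rise with Cpa1 over the 14 arrays (r = 1.00, 0.96 and 0.96). For Clps and Pnliprp2 the GR iKO DEX arrays with low Cpa1 lie above the other arrays with low Cpa1. Those of Pnliprp1 do so by less, at −2.26 and −1.69, beside −2.47 in GR iKO PBS mouse 4.

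The comparison of DEX with PBS in Flox mice asks how the colon with intact GR responds to the hormone. The mean of *Clps* was 2.14 higher with DEX (SE 0.96, 4.42-fold) and that of *Pnliprp2* 2.64 higher (SE 1.13, 6.22-fold). *Pnlip*, *Pnliprp1* and *Cel* differed by 5.64, 4.40 and 4.84 with standard errors of 4.06, 2.78 and 2.64, and the values of *Pnlip* are not exact, because it was at background in Flox PBS mice 1 and 4. The groups overlapped for all 5 genes. Single arrays moved these values, to between 1.49 (without Flox DEX mouse 2) and 3.42 (without Flox DEX mouse 4) for *Clps* and between 1.80 (without Flox PBS mouse 1) and 3.83 (without Flox DEX mouse 4) for *Pnliprp2*. Without Flox DEX mouse 2 and without Flox DEX mouse 4 they were 3.49 and 9.89 for *Pnlip*, 2.54 and 8.07 for *Pnliprp1* and 3.29 and 7.93 for *Cel*. These means rest on 2 of the 3 DEX arrays, those of mice 1 and 2, which carried pancreas genes. Leaving out the 6 arrays with pancreas genes was decided with the values in view, and differences were then 0.55 for *Clps*, 1.44 for *Pnliprp2*, −0.25 for *Pnliprp1* and 1.19 for *Cel*. None is given for *Pnlip*, which was at background in both remaining Flox PBS mice. Flox DEX had 1 array left, assumed to vary like the other groups. No member passed the threshold used for all probes, beside 1.57% of the 41174 probes, and nothing is read from this count because the comparison was known when the members were chosen.

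In GR iKO mice, where the epithelium lacks GR, *Pnliprp2* was 5.42 higher with DEX (SE 1.13, 42.8-fold) and *Clps* 2.72 higher (SE 0.96, 6.6-fold). Without the arrays with pancreas genes the differences were 5.42 and 2.66. With the mean of the 3 comparison genes on each array as a covariate, also chosen after the data were seen, they were 4.25 and 1.57. The differences of *Pnliprp1* and *Cel* fell further in these settings. *Pnlip* was detected in DEX mice 2 and 4 and at background in the other 2 DEX mice and in all 3 PBS mice, so neither a fold nor a bound is given. Without the arrays with pancreas genes it was at background on every GR iKO array, and no difference is given. *Pnliprp1* was 4.01 higher (SE 2.78), or 1.6 without those arrays, 0.06 with the covariate, and 3.15 without DEX mouse 2. *Cel* was 2.41 higher (SE 2.64), or −0.43 without those arrays, −1.39 with the covariate, and 1.35 without DEX mouse 2. In this comparison 1 of the 5 members, *Pnliprp2*, passed the threshold used for all probes, beside 5.01% of all probes, and nothing is read from this count either.

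The difference between the responses of the genotypes, the interaction, was 2.78 for *Pnliprp2* (SE 1.6) and 0.58 for *Clps* (SE 1.36). It was 3.98 and 2.11 without the arrays with pancreas genes. For *Pnlip*, *Pnliprp1* and *Cel* it was 0.79, −0.40 and −2.43, with standard errors of 5.74, 3.93 and 3.74, and the value of *Pnlip* is not exact, since it rests on arrays at background. No member passed the threshold, beside 0.221% of all probes. Without Flox DEX mouse 4 it was 1.58 for *Pnliprp2* and −5.52 for *Cel*, which was −0.87 without Flox DEX mouse 2. The direction for *Clps* changed with 1 array, from −0.70 without Flox DEX mouse 4 to 1.23 without Flox DEX mouse 2. For *Pnlip* and *Pnliprp1*, too, the direction changed, under 6 and 9 alternatives. No p is given for the members here, because the DEX responses were known when they were chosen.

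**Figure D4:**
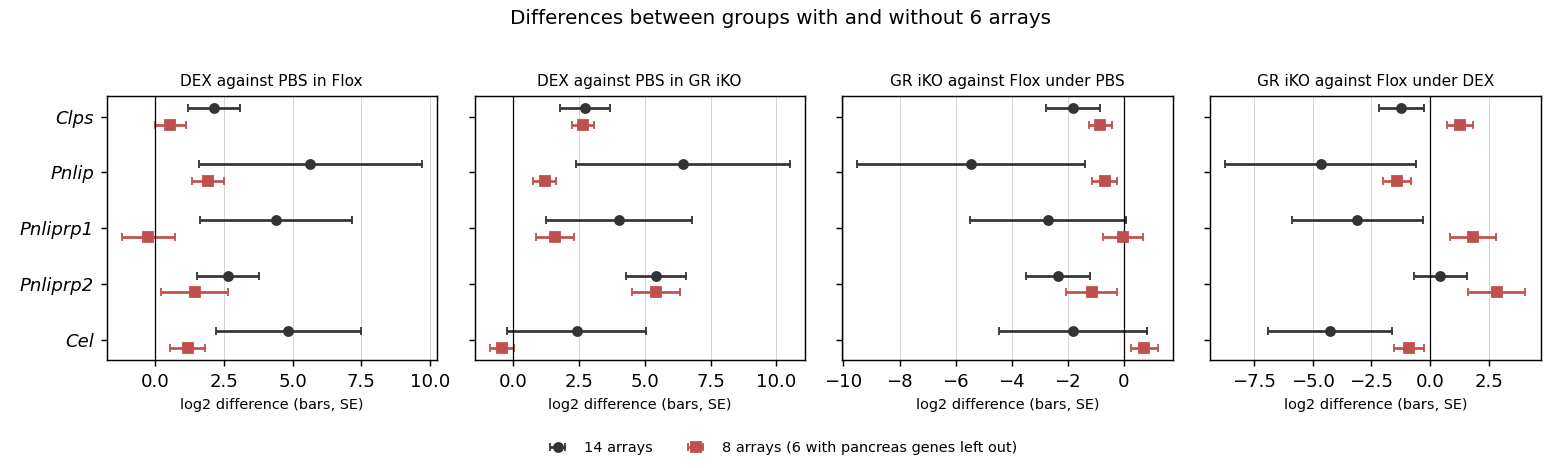
Difference of each member between groups (log2, horizontal axis, bars showing SE) in 4 comparisons, over all 14 arrays (circles) and over the 8 arrays left when the 6 with pancreas genes are taken out (squares, with a single Flox DEX array). With DEX in GR iKO mice the difference of Pnliprp2 is 5.42 in both and that of Clps 2.72 and 2.66. Pnlip lay at background in the GR iKO PBS group, in GR iKO DEX mice 1 and 3 and in Flox PBS mice 1 and 4, so its points are not exact differences where they rest on these arrays.

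The genotypes were compared under PBS to ask whether loss of epithelial GR alone shifts the family. No member passed limma's test, beside 0.134% of all probes, and 0 of the 5 had an unadjusted p under 0.05. *Clps* was lower in GR iKO mice by 3.50-fold (difference −1.81, SE 0.96, adjusted p = 0.725 by limma) and *Pnliprp2* by 5.09-fold (difference −2.35, SE 1.13, adjusted p = 0.67). Without the arrays with pancreas genes these differences were −0.84 and −1.15 (adjusted p = 0.786 and 0.926). Without Flox PBS mouse 2 they were −1.01 and −1.41. Over all alternatives the adjusted p lay between 0.464 and 1.0 for *Clps* and between 0.413 and 1.0 for *Pnliprp2*. *Pnlip* had an adjusted p of 0.842 and no fold is given, because it was detected in Flox PBS mice 2 and 3 alone. *Pnliprp1* and *Cel* differed by −2.70 and −1.81 (adjusted p = 0.842 and 0.893). For *Pnliprp1* the difference was −0.72 without Flox PBS mouse 2 and −0.03 without the 6 arrays. For *Cel* it was 0.21 without Flox PBS mouse 2 and 0.73 without the 6 arrays, so its direction, and the size for *Pnliprp1*, depended on the arrays with pancreas genes.

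Under DEX, too, no member passed limma's test, beside 0.16% of all probes, and 0 of the 5 had an unadjusted p under 0.05. The methods' t-test after adjustment called no probe in either genotype comparison. *Pnliprp2* differed by 0.44 between GR iKO and Flox mice (SE 1.13, adjusted p = 0.885) and *Clps* by −1.23 (SE 0.96, adjusted p = 0.615). Both depended on which Flox DEX arrays were used. Without the arrays with pancreas genes, *Pnliprp2* was 2.83 and *Clps* 1.27 higher in GR iKO mice (adjusted p = 0.463 for both), against a single Flox DEX array. Without Flox DEX mouse 4 they were −0.76 and −2.51. Over all alternatives the adjusted p lay between 0.463 and 0.977 for *Pnliprp2* and between 0.224 and 0.878 for *Clps*. *Pnliprp1* and *Cel* differed by −3.10 and −4.24 (adjusted p = 0.659 and 0.527). Without Flox DEX mouse 4 these differences were −6.76 and −7.33, and without Flox DEX mouse 2 they were −1.24 and −2.68. *Pnlip* had an adjusted p of 0.651 and no difference is given, because it was at background in GR iKO DEX mice 1 and 3. Without the arrays with pancreas genes the difference was 1.82 for *Pnliprp1* and −0.9 for *Cel*.

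The 10 genes most like each of *Clps* and *Pnliprp2* were taken by Pearson r over the 14 arrays, among 16260 genes. For *Clps* these included *Reg3d* (r = 0.938), *Fetub* (0.936), *Olfr914* (0.919), *Pnliprp2* (0.917), *Pnliprp1* (0.904), *Tead2* (0.903), *Ctrb1* (0.903), *Pla2g1b* (0.902) and *Kirrel3* (0.898). *Ctrb1* is on the exocrine list, and *Pla2g1b* encodes the pancreatic phospholipase A2. For *Pnliprp2* they were *Clps* (0.917), *Olfr914* (0.908), *Ptprb* (0.899), *Cldn10* (0.885), *Atp13a1* (0.884), *Itln1* (0.883), *Col6a5* (0.871), *Foxq1* (0.868), *Tmem214* (0.865) and *Cebpb* (0.862), none of which is on the exocrine list. Most of these genes covered a narrow range, such as 0.39 for *Cebpb* and 0.43 for *Atp13a1*, and *Itln1*, at 6.88, covered a range like that of *Pnliprp2*, at 6.80. For *Pnlip*, in contrast, 8 of the 10 nearest genes were on the exocrine list, led by *Cpa1* (r = 0.996).

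*Itln1* encodes the intestinal lectin intelectin and was listed with *Ang4*, *Lyz1* and *Mmp7* among genes of Paneth cells. It was −0.47, 3.18, 1.04 and 2.35 in Flox PBS, 2.72, 2.29 and 2.46 in Flox DEX, −0.66, −0.02 and −2.46 in GR iKO PBS, and 3.57, 4.23, 4.33 and 4.42 in GR iKO DEX. Like *Pnliprp2*, it was higher on all GR iKO DEX arrays than on all GR iKO PBS arrays, and unlike *Pnliprp2* it was not raised on the Flox DEX arrays with pancreas genes over Flox DEX mouse 4. In GR iKO mice *Itln1* and *Ang4* rose with DEX by 36.4-fold and 7.05-fold (adjusted p = 0.00262 and 0.00843) and *Lyz1* was 2.07-fold lower (adjusted p = 0.0327), so that 3 of the 4 measured genes of the list were called, 2 higher and 1 lower, beside 5.01% of all probes. With each array left out, the difference lay between 4.48 and 5.7 for *Itln1* (5.18 over all arrays) and between 2.48 and 3.46 for *Ang4* (2.82). The call was lost in 1 of 25 alternatives for *Itln1*, in 3 for *Ang4* and in 10 for *Lyz1*, whose adjusted p reached 0.251. Without the arrays with pancreas genes the differences of *Itln1* and *Ang4* were 5.0 and 2.96 and no longer passed (adjusted p = 0.0802 and 0.126, the highest over all alternatives, the lowest being 0.00123 and 0.00412). The part of these cells in the levels of *Clps* and *Pnliprp2* was not tested.

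Other members of the lipase superfamily were read beside these genes. None of 6 (*Lpl*, *Lipc*, *Lipg*, *Liph*, *Lipi*, *Pla1a*) was called in any comparison, beside 0.134% to 5.01% of all probes by comparison. Nothing is read from this count. *Liph* and *Lpl*, the brightest, kept to ranges of 0.68 and 1.86, and *Pla1a* to 1.15. *Lipi* was not well above background on any array and *Lipc* on 2. Their median difference was −0.21 for DEX in Flox mice and 0.04 for DEX in GR iKO mice.

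Among 20 further genes of lipid digestion, uptake and chylomicron assembly, 1 was called in 1 comparison. This was DEX in Flox mice, where 1.57% of all probes were called, beside 0.134% to 5.01% in the other comparisons. Nothing is read from this count. *Plin2*, which coats lipid droplets, was 2.15-fold lower in Flox DEX than in Flox PBS (adjusted p = 0.0377). The call was lost in 13 of 25 alternatives. The lowest adjusted p over all alternatives was 0.00668, and that without Flox DEX mouse 1 was 0.138. Without the arrays with pancreas genes, which leaves 1 Flox DEX array, the difference was −0.89, against −1.1 over all arrays. The brightest of the others, *Fabp2* and *Dgat2*, had mean levels of 6.65 and 3.91 and were not called. *Pla2g1b*, the one secreted by acinar cells, was 0.65 in Flox PBS mouse 2, 2.80 and 2.75 in Flox DEX mice 1 and 2, −0.88 and −1.97 in GR iKO DEX mice 2 and 4, and between −7.84 and −4.23 on the other 9 arrays. It was thus high on the 5 arrays where *Pnlip* was highest, but low in Flox PBS mouse 3, where *Pnlip* was detected. Gastric lipase, *Lipf*, was low throughout, between −5.24 and −2.90.

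Genes of neighbouring gut segments were read for the same arrays, beside 1.57% of all probes called with DEX in Flox mice, 5.01% in GR iKO mice, 0.221% in the interaction and 0.134% between genotypes under PBS. Of 8 small intestine genes, 2 were called in Flox mice given DEX (*Lct*, and *Slc10a2*, 55.3-fold higher, adjusted p = 0.00371 and 0.0225) and 2 in GR iKO mice (*Lct*, and *Tmprss15*, at least 10.6-fold higher, adjusted p = 0.0013 and 0.000641). The bound sets the mean of a group detected on every array against the lowest signal counted as well above background on each array of the dimmer one. *Lct* was at background in Flox PBS mouse 3 and GR iKO PBS mice 2 and 3, so its differences of 3.83 and 4.29 are not exact, and with normexp, another background correction, they were 2.14 and 2.26. The difference of *Slc10a2* was 5.79, and 4.2 with normexp. *Tmprss15*, the enteropeptidase that activates trypsinogen in the gut lumen, was also called in the interaction (adjusted p = 0.0147, with no exact difference, since GR iKO PBS lay at background) and was lower under PBS, by at least 4.83-fold, in GR iKO mice (adjusted p = 0.0183). With normexp *Tmprss15* was not called in any of these 3 comparisons. Over all alternatives the call was lost in 1 of 25 for DEX in GR iKO mice, in 2 of 23 for the interaction and in 8 of 25 for the genotypes. That of *Slc10a2* was lost in 11 of 25, with an adjusted p of up to 0.604, and those of *Lct* in 2 and 0 of 25. Of 8 stomach genes, *Pgc* was called in GR iKO mice (at least 2.19-fold higher with DEX, adjusted p = 0.0026), but not with normexp (adjusted p = 0.855). Of 5 posterior colon genes, *Hoxd12* was higher and *Hoxd10* lower under DEX in the GR iKO group (adjusted p = 0.0279 and 0.022). *Hoxd12* was at background in GR iKO PBS mice 2 and 4 and *Hoxd10* in GR iKO DEX mice 3 and 4, so the differences of 2.52 and −1.49 are not exact. That of *Hoxd12* was 1.82 without GR iKO PBS mouse 2. The calls were lost in 11 and 6 of 25 alternatives, with an adjusted p of up to 0.725 and 0.899. No gene of the goblet cell, colon epithelium, adipocyte, smooth muscle or enteroendocrine lists was called in any comparison. The segment of colon taken from each mouse is not given in the sources used here, and its part in these levels was not tested.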

How the data were processed

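The authors' scanner files (Agilent Feature Extraction) hold deposited spot intensity values, and their series table holds deposited log2 values, quantile normalized over the 14 arrays (every column median 6.29, centring not stated). The submitters' processing notes also name Partek 6.6. Here, log2 of the processed intensity was taken, control and outlier spots were left out, spots of a probe were averaged and the 75th percentile of each array (566 to 774) was subtracted. Between 28284 and 30504 of 41174 probes were well above background, and the number of arrays limits the precision. Probes were named through RefSeq accessions (GRCm38.p6), with 28223 matched. All 4 groups were fitted in limma 3.58.1 (R 4.3.3) with Benjamini-Hochberg adjustment over all probes, and the fit was tested on simulated data. Tables and plots were made in Python 3.11.15 with numpy 2.4.6, pandas 2.3.3 and matplotlib 3.10.9. The brightest probe stood for a gene with more than 1. Named genes were drawn from the members, the comparison and label genes, the 3 brightest and up to 6 called genes of each list, and the 10 genes most like *Clps* and *Pnliprp2*. Other list genes, such as *Ptf1a*, *Rbpjl*, *Ins1*, *Pla2g1b*, *Lipf* and *Hoxb13*, were named after their values were seen. Members and lists were chosen with earlier results of these data known. The labels give replicates as separate mice. Alternatives were the authors' log2 table, median scaling, normexp, a filter on dim probes, outlier spots kept, normalization within 3 parts of the rows, only the compared groups, a replicate block, each array left out, the methods' t-test and averaging a gene's probes. The 6 arrays left out and the covariate were added after seeing the data.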

Additional observations from a re-analysis of the deposited data

Results flagged for a closer look

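Among 24 groups of 4 arrays (each member, comparison and label gene in the groups of that size), 1 held an array far from the others, where chance gives about 1 in 20. *Tsc22d3* was low, at 1.22, in Flox PBS mouse 3, with a gap to the next array of 0.899 of the range of the group. Flox and GR iKO mice differed in their response to DEX for *Sgk1*, by −2.56 (adjusted p = 0.0436 by limma), and for *Fkbp5*, by −2.71 (adjusted p = 0.0436). Each of these calls was lost in 16 of 23 alternatives, most of them with 1 array left out. The adjusted p was 0.0663 and 0.0814 with the replicate block, 0.0528 for both in the authors' table, and 0.35 and 0.158 with normexp. With the 6 arrays with pancreas genes left out, which leaves 1 Flox DEX array, the differences were −1.83 and −2.11. Both are label genes. No member passed the threshold for the interaction.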

How the results depend on the processing

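Each of the 5 members has 123 values under the alternatives. The direction was kept in 120 for *Clps*, 115 for *Pnlip*, 110 for *Pnliprp1*, 122 for *Pnliprp2* and 118 for *Cel*, and 2, 6, 9, 0 and 0 of the changes of direction were in the interaction. No genotype comparison of a member passed under any alternative. With DEX in GR iKO mice, *Pnliprp2* lay between 5.09 and 5.75 and *Clps* between 2.51 and 2.88 with each array left out, and between 4.69 and 5.69 and between 2.57 and 2.80 under the other alternatives except the settings added later. Averaging a gene's probes does not apply to the members, which have 1 probe each. The settings added later were chosen after seeing the data. With the 6 arrays with pancreas genes left out, the difference with DEX in Flox mice was 0.55 for *Clps* and −0.25 for *Pnliprp1*, and the interaction was 2.11 for *Clps* and 0.22 for *Tsc22d3*. The genotype difference under DEX was then 1.27 for *Clps* and 1.82 for *Pnliprp1*, and that under PBS 0.73 for *Cel*. With the mean of *Cpa1*, *Cela2a* and *Prss2* as a covariate, the difference with DEX was −0.33 in Flox and 0.53 in GR iKO mice for *Pnlip*, 0.42 in Flox mice for *Pnliprp1*, and 0.99 and −1.39 for *Cel*. The genotype difference was 0.37 under PBS and 0.01 under DEX for *Pnliprp1*, 0.02 under DEX for *Pnlip* and 1.15 under PBS for *Cel*. The value of *Pnlip* in Flox mice is not an exact difference, because it rests in part on arrays at background. Leaving out each array gave −0.76 (without Flox DEX mouse 4) to 1.05 for *Pnliprp2* under DEX and −2.69 to 0.21 (without Flox PBS mouse 2) for *Cel* under PBS between the genotypes. The cause was not tested.

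The number of probes called moved more. With DEX in Flox mice it was 646, and 58 with normexp, 1467 by the methods' t-test unadjusted, 0 after adjustment, 16 without the 6 arrays, and 215 (without Flox DEX mouse 1) to 840 with each array left out. In GR iKO mice it was 2063, and 45 with normexp, 705 by the adjusted t-test and 607 without the 6 arrays. For the interaction it was 91, and 166 with the filter on dim probes, 5 with normexp, 158 with normalization within 3 parts of the rows, 56 in the authors' table, 51 without the 6 arrays, and 36 (without GR iKO DEX mouse 2) to 212 (without GR iKO PBS mouse 2) with each array left out. For the genotypes under PBS it was 55, and 2 with normexp, 17 with only the groups compared, 703 by the unadjusted and 0 by the adjusted t-test, 0 without the 6 arrays, 24 with the covariate, and 22 (without Flox PBS mouse 3) to 183 (without GR iKO PBS mouse 2). Under DEX it was 66, and 6, 18, 658 and 0 in the same first 4 settings, 22 with the covariate, and 18 (without Flox DEX mouse 1) to 141 (without Flox DEX mouse 4). The cause was not tested.

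Whether equal replicate numbers pair the samples was checked with the correlation of residuals. Of 18 pairs with the same number, 8 had r over 0.1 (−0.25 to 0.31, median 0.04, against −0.02 for other pairs), so the numbers were not taken as pairs. With the number as a block, 398 probes were called with DEX in Flox mice, 40 for the interaction, 24 for the genotypes under PBS and 26 under DEX. Signal over background limits *Pnlip*, *Cpa1* and *Cela2a*, which were not well above background on 7, 5 and 8 of the 14 arrays.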
